A study of Mus musculus with 4 samples.

Results

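The forkhead transcription factor genes of the gut mesenchyme Foxf1, Foxf2, Foxl1, Foxd1, Foxd2, Foxc1, Foxc2, Foxp1 and Foxp2, were followed in stromal cells of the embryonic mouse intestine. They were taken by symbol and are 9 of the 28692 genes listed in the count matrices. The cells came from untreated E12.5 embryos of the strain EYFP (C57BL/6), which carry a yellow fluorescent protein. Small intestine (SI) and large intestine (LI, cecum included) were dissected, and live CD45- Ter119- CD31- EpCAM- Itgb1+ YFP+ cells were sorted, which leaves out blood, endothelial and most epithelial cells. The labels give 2 independent experiments of 3 to 5 embryos each, for 2 LI and 2 SI libraries. Some labels call the tissue adult or lamina propria, while the titles give E12.5. The 10x kits named are of the 3′ and 5′ types, and which library used which is not given in the sources used here.

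Forkhead factors bind DNA through a winged helix domain. In the gut, hedgehog ligands from the epithelium act on the underlying mesenchyme and maintain FoxF and Foxl1 expression there. Foxf1 and Foxf2 serve the growth and smooth muscle differentiation of this mesenchyme, and Foxl1 marks mesenchymal cells that lie against the epithelium. Foxd1, Foxd2, Foxc1 and Foxc2 are better known from the mesenchyme of the kidney, body wall, vessels and skeleton, and Foxp1 and Foxp2 are mostly transcriptional repressors with wide roles in developing organs.

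The genes lie on 4 chromosomes (mm10, GENCODE M21). Foxf1 (chr8:121084386-121088144), Foxc2 (chr8:121116171-121118895) and Foxl1 (chr8:121127940-121130644) stand in this order on the plus strand, with gaps of 28.0 kb and 9.0 kb between them. Foxf2 (chr13:31625816-31631403) and Foxc1 (chr13:31806633-31812476) are 175.2 kb apart on the plus strand, and Foxd1 (chr13:98354242-98359305) lies far from both on the same chromosome. Foxd2 is at chr4:114906282-114908873 on the minus strand. Foxp1 (chr6:98925338-99522721, minus strand) and Foxp2 (chr6:14901349-15441977, plus strand) are much longer genes. Of stretches of 60 bases in the transcripts of Foxf1, Foxf2, Foxd1, Foxd2, Foxc1 and Foxc2, 0 were shared with another gene, so counts of these relatives could be told apart. The share was 0.378% for Foxl1, 0.179% for Foxp2 and 2.26% for Foxp1, which shares exon bases with Gm20696.

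Promoter windows were given by RefSeq (GRCm38.p6) for 5 of the 9 genes. The 250 bases before the start are shown for Foxf2, which followed the cell groups, and for Foxd1 and Foxc1, which were high together in 1 cell cluster of 1 library. Capitals mark CpG dinucleotides, of which Foxf2 has 21, Foxc1 29 and Foxd1 12, against a median of 6 over 32851 windows.
Foxf2 (chr13:31625566-31625815, plus strand): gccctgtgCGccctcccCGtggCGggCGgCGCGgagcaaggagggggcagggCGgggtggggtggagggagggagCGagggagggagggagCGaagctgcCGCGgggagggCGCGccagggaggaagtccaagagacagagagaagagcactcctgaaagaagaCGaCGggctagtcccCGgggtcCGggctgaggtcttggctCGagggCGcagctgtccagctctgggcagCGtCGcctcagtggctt
Foxd1 (chr13:98353995-98354244, plus strand): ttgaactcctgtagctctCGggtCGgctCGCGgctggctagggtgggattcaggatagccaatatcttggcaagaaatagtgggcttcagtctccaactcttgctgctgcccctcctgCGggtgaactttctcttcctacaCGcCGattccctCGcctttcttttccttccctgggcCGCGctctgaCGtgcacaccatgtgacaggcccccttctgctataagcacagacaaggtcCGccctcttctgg
Foxc1 (chr13:31806396-31806645, plus strand): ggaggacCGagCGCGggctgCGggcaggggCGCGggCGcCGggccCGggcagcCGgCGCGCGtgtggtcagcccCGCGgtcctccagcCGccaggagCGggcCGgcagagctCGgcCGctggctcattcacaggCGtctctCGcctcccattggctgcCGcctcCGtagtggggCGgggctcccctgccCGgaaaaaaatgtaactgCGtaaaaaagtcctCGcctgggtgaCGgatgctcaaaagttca
Motifs were searched on both strands of the full windows, 250 bases before to 50 after the start. These were the GLI motif GACCACCCA (in 0.253% of all windows), the forkhead motif GTAAACA (3.65%) and TATAAA (13.6%). The 7 windows of Foxf2, Foxd1, Foxc1, Foxd2 and Foxp1 held 0 matches to any of the 3 motifs.

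The libraries held 5151 to 6881 cells and 31630548 to 62886525 UMIs (unique molecular identifiers, each standing for 1 captured RNA molecule). LI replicate 1 was the shallowest, with a median of 4221 UMIs in kept cells against 8382 to 8829 in the others. After removal of low-quality cells and predicted doublets, 22094 cells remained, and any 2 libraries shared 8 to 15 cell barcodes. Cells were clustered without any forkhead, Hox or hedgehog gene, and fixed markers named the clusters. Cluster 1 was smooth muscle (SMC)-like (4923 cells, led by Myh11 and Cnn1), cluster 5 mesothelial-like (1321 cells, led by Upk3b and Krt19), and clusters 7 and 9 neural-like (956 cells led by Foxd3 and Sox10, and 290 cells led by Cartpt and Stmn2). The neural-like cells stood in a sort for mesenchyme. The other 7 clusters, in each of which at least 7 of 8 fibroblast markers were detected, are called other mesenchyme. They include clusters 3, 6, 8 and 10, which stayed unnamed because a marker of another class was among their leading genes. Cluster 10 was led by Pf4, Afp and hemoglobin genes, with 154 of its 173 cells in LI replicate 2. Levels are given in CPM, a gene's UMIs scaled to the same total for each library's cells of a group, in the order LI replicate 1, LI replicate 2, SI replicate 1, SI replicate 2. In such sums, fewer expressing cells and less RNA per cell cannot be told apart, and CPM is compared within a gene only.

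Foxf1 and Foxf2 were found across the mesenchyme, were highest in SMC-like cells among the 4 pooled groups and were close to absent in neural-like cells. Foxf1 reached 334, 679, 594 and 636 CPM in SMC-like cells. It stood at 235, 420, 397 and 321 CPM in other mesenchyme and at 216, 332, 316 and 243 CPM in mesothelial-like cells. Neural-like cells had 7.18, 2.87, 8.25 and 3.12 CPM. In all 4 libraries Foxf1 was higher in SMC-like cells and lower in mesothelial-like and neural-like cells than in other mesenchyme, but the ranges of mesothelial-like cells and other mesenchyme over the libraries overlapped. LI replicate 1 was the lowest library in each of the 3 mesenchymal groups.

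Foxf2 was likewise highest in SMC-like cells among the 4 groups. It measured 61.2, 115, 91.9 and 83.9 CPM in SMC-like cells, against 32.9, 54.5, 57.8 and 45.4 CPM in other mesenchyme. Mesothelial-like cells had 34.5, 45.4, 36.4 and 25.3 CPM and neural-like cells 0.845, 1.08, 0.868 and 0.918 CPM. The SMC-like libraries lay above all other mesenchyme libraries, and the mesothelial-like ones overlapped them.

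To compare cells at equal depth, each was thinned to 3000 UMIs, leaving out 1379 of 22094 cells that had fewer (987 of them in LI replicate 1). Foxf1 was then seen in 78.2% ± 11.1 of SMC-like cells, 55.0% ± 8.62 of other mesenchyme and 53.3% ± 7.30 of mesothelial-like cells (SD, n = 4). In neural-like cells the share was 1.60% ± 1.16, and the part that free RNA had in these shares was not tested. Unthinned shares ran from 55.0% to 86.0% in other mesenchyme and from 3.21% to 8.59% in neural-like cells, whose larger cluster had medians of 11432 to 20707 UMIs, against 3530 to 8164 in cluster 0 of other mesenchyme. Foxf2 was seen in 21.3% ± 4.75 of SMC-like cells, 11.7% ± 2.52 of other mesenchyme, 9.30% ± 0.782 of mesothelial-like cells and 0.270% ± 0.362 of neural-like cells.

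**Figure D1:**
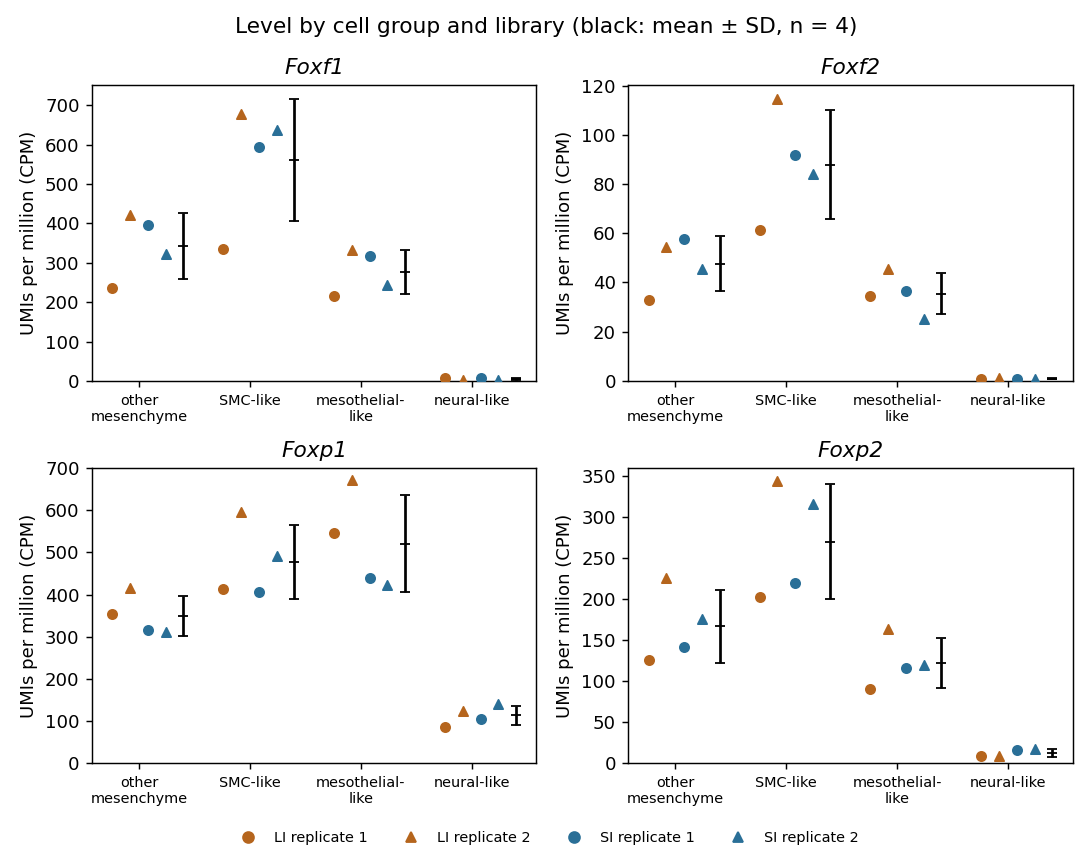
Level of Foxf1, Foxf2, Foxp1 and Foxp2 in CPM (vertical axis, linear) in 4 cell groups, with 1 point per library and the mean ± SD over the 4 libraries in black. Foxf1 and Foxf2 were highest in SMC-like cells and near 0 in neural-like cells, while Foxp1 was highest in mesothelial-like cells in LI replicate 1, LI replicate 2 and SI replicate 1.

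Foxp1 had another order than the FoxF genes. Its highest levels were in mesothelial-like cells, at 547, 672, 440 and 423 CPM. SMC-like cells had 414, 596, 406 and 491 CPM and other mesenchyme 354, 416, 316 and 311 CPM. Neural-like cells were lowest, with 86.6, 123, 106 and 140 CPM, but far from absent, and their 4 libraries lay below those of every other group. Mesothelial-like cells were above SMC-like cells in 3 of the 4 libraries, not in SI replicate 2, so this order is not separated from the spread.

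Of the 4 groups, Foxp2 was highest in SMC-like cells (202, 344, 220 and 315 CPM), followed by other mesenchyme (125, 226, 142 and 175 CPM) and mesothelial-like cells (90.7, 164, 116 and 120 CPM). In each library the 3 groups stood in this order, although their ranges over the libraries overlapped. Neural-like cells had 8.87, 8.97, 16.7 and 18.0 CPM.

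A test between cell groups needs cells chosen without clustering, so cells were taken by fixed markers alone, none of them a forkhead gene. By library this gave 260 to 2721 SMC, 140 to 471 mesothelial, 211 to 412 neural and 938 to 1077 other mesenchyme cells. Of the SMC cells, 3460 lay in the SMC-like cluster and 2239 in other mesenchyme clusters, and LI replicate 1 gave the fewest, 260. Of the cells in other mesenchyme clusters, 3959 were chosen as other mesenchyme and 8383 fell in no marker-chosen group. In these tests other mesenchyme is the marker-chosen cells only, not the clusters as a whole. Sums per library were compared by edgeR's quasi-likelihood test with library as a block and Benjamini-Hochberg adjustment over 12726 genes, and 6 of the 9 genes passed the filter on low counts (Foxc1, Foxc2 and Foxd2 did not).

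Against other mesenchyme, 4 of these 6 genes were called higher in SMC cells, where 3.98% of all genes tested were. Foxf2 rose by 1.47 ± 0.12 on the log2 scale (SE, adjusted p = 1.7e-06), from 30.6, 35.5, 40.0 and 22.1 CPM to 66.0, 103, 90.4 and 79.4 CPM, with no overlap. Foxf1 rose by 1.12 ± 0.16 (adjusted p = 2.9e-04), from 224, 326, 282 and 183 CPM to 341, 627, 580 and 584 CPM, again with no overlap. Foxp2 rose by 0.66 ± 0.12 (adjusted p = 0.0024) and Foxp1 by 0.57 ± 0.12 (adjusted p = 0.0070), each higher in 4 of 4 libraries. Foxl1 differed by 0.37 ± 0.34 (adjusted p = 0.64) and Foxd1 by -3.44 ± 1.04 (adjusted p = 0.051). Without the library block only Foxf1 and Foxf2 were called in SMC cells. The Foxp1 call was also lost without LI replicate 2 (adjusted p = 0.079) and without SI replicate 1 (0.056). Foxd1 was called when either LI replicate 1 or SI replicate 1 was left out, and without LI replicate 2 the Foxl1 difference turned to -0.10.

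In mesothelial cells 1 of the 6 genes was called higher (16.9% of all genes tested) and 2 lower (15.3%). Foxp1 rose by 0.73 ± 0.12 (adjusted p = 3.2e-04) and Foxp2 fell by 0.44 ± 0.13 (adjusted p = 0.018). The Foxp2 call was lost without LI replicate 1 (adjusted p = 0.053), without SI replicate 1 (0.053) and without the library block (0.20). Foxf1 differed by 0.11 ± 0.16 and Foxf2 by 0.06 ± 0.14 (adjusted p = 0.64 and 0.79), so neither was separated from other mesenchyme. Foxl1 had 0 UMIs in all 4 mesothelial sums, against 12, 14, 60 and 36 UMIs in other mesenchyme. It passed the filter through the other groups, so it could be called lower but not higher. Taking 3 UMIs over the group as the limit that a count of 0 allows, its level was at least 9.87-fold lower in mesothelial cells (adjusted p = 0.0016).

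In neural cells the 6 genes that passed the filter were called lower, where 29.2% of all genes tested were. Foxl1 and Foxd1, with 1 and 7 UMIs in neural cells, passed through the other groups, so they could be called lower but not higher. Foxd2, which did not pass, had 45 UMIs in neural cells against 13 in other mesenchyme and was higher in 3 of 4 libraries. Foxf1 fell by 5.64 ± 0.23 and Foxf2 by 5.22 ± 0.23 on the log2 scale (adjusted p = 2.1e-11 and 5.6e-11). Foxp2 fell by 3.57 ± 0.16 and Foxp1 by 1.40 ± 0.13 (adjusted p = 4.0e-11 and 1.6e-07). Foxl1, with 1 UMI in neural cells against 122 in other mesenchyme, was lower with an adjusted p of 7.7e-05. Foxd1 fell by 3.89 ± 1.18 (adjusted p = 0.011), but 268 of its 276 UMIs in other mesenchyme came from SI replicate 2.

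**Figure D2:**
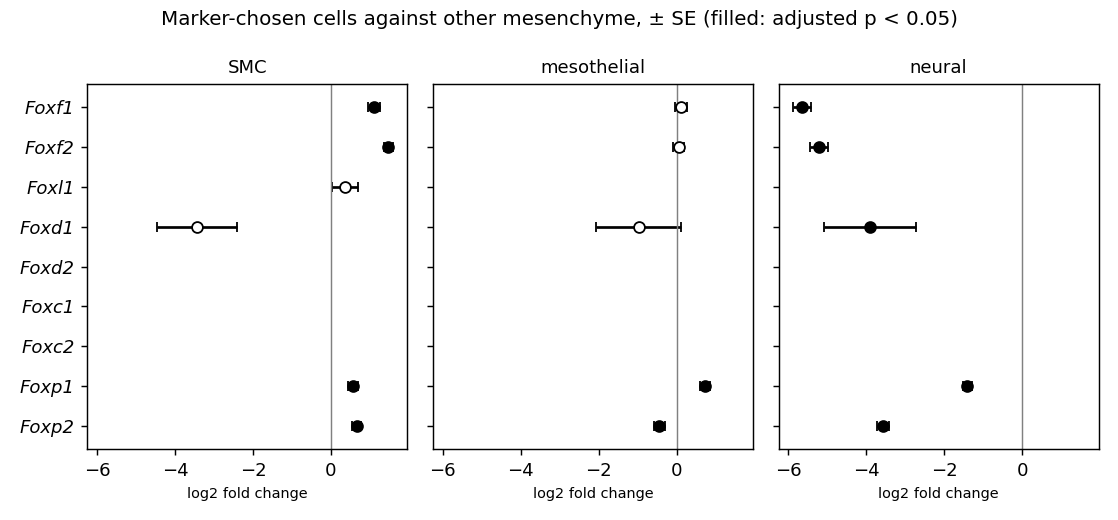
Log2 fold change ± SE (horizontal axis) of each tested gene in marker-chosen SMC, mesothelial and neural cells against other mesenchyme, from edgeR over 4 libraries, filled where the adjusted p is under 0.05. Foxf1, Foxf2, Foxp1 and Foxp2 lay above 0 in SMC cells and below 0 in neural cells. Foxl1 is not drawn for mesothelial and neural cells, which had 0 and 1 UMIs.

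Within other mesenchyme the FoxF genes were low in cluster 4 in every library, and also in the cluster 8 cells of SI replicate 2. Cluster 4 (1870 cells, led by Anxa2, Tac2 and Wnt4) had 36.3, 74.8, 122 and 62.0 CPM of Foxf1. Cluster 0, the largest (6055 cells, led by Pitx1 and Igfbp5), had 240, 392, 337 and 289 CPM, and cluster 3 had 322, 651, 543 and 506 CPM. Foxf2 was 3.50, 5.49, 12.2 and 5.02 CPM in cluster 4 and 62.5, 125, 117 and 111 CPM in cluster 3, which was above SMC-like cells in each library, although the ranges over the libraries overlapped. For both genes all 4 libraries of cluster 4 lay below all 4 of clusters 0 and 3. LI replicate 1 was the lowest library for Foxf1 in 7 of the 10 clusters with at least 20 cells in each library, and for Foxf2 in 6 of 10.

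Foxl1 was largely the gene of 1 cluster. Cluster 3 (2319 cells) was led by Bmp3, which encodes a BMP ligand, Col14a1, Nrg1, an ERBB receptor ligand, and Dll1, a Notch ligand. There Foxl1 measured 15.4, 21.0, 29.0 and 27.0 CPM, from 44, 114, 170 and 211 UMIs. These are 539 of its 807 UMIs in all kept cells. SMC-like cells had 4.76, 3.34, 5.31 and 3.59 CPM, and cluster 0 had 0.481, 0.394, 0.113 and 0.199 CPM. All libraries of cluster 3 lay above all libraries of the other clusters. At 3000 UMIs per cell, 3.76%, 5.41%, 7.96% and 7.42% of cluster 3 cells had a Foxl1 UMI, against 0% in neural-like and mesothelial-like cells, where a count of 0 allows shares of up to 0.534% to 1.76% by library.

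**Figure D3:**
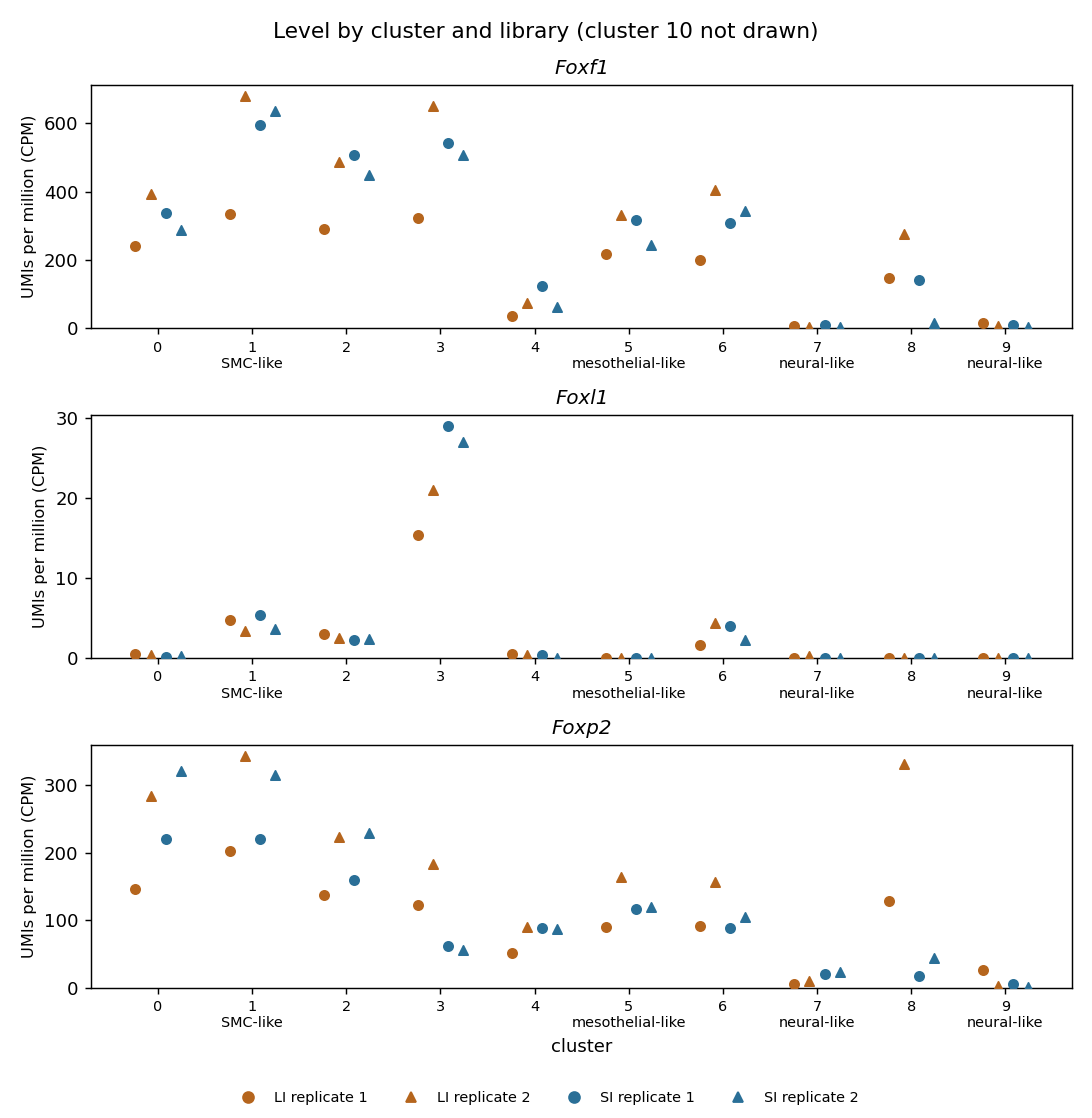
Level of Foxf1, Foxl1 and Foxp2 in CPM (vertical axes, linear) in clusters 0 to 9, with 1 point per library; cluster 10, with 154 of its 173 cells in LI replicate 2, is not drawn. Foxl1 stood out in cluster 3, at 15.4 to 29.0 CPM, Foxf1 was low in clusters 4, 7 and 9, and Foxp2 in cluster 3 was lower in both SI libraries than in both LI libraries.

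Foxd1, Foxc1, Foxc2 and Foxd2 were rare, and 1 cluster of 1 library held 79.0% of the Foxd1 UMIs, 50.3% of the Foxc1 UMIs and 48.6% of the Foxc2 UMIs. Cluster 8 (355 cells: 89, 126, 20 and 120 by library) was led by Foxd1, Shisa3, Kctd12, Foxc2 and Prrx1. In its SI replicate 2 cells Foxd1 reached 335 CPM, Foxc2 81.7 CPM, Foxc1 72.9 CPM and Foxd2 20.03 CPM. Those 120 cells, 0.543% of kept cells, held 418 of 529 Foxd1 UMIs, 102 of 210 Foxc2 UMIs, 91 of 181 Foxc1 UMIs and 25 of 88 Foxd2 UMIs. In the 3 other libraries cluster 8 held 1 UMI of Foxd1, 3 of Foxc2, 1 of Foxc1 and 0 of Foxd2.

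In SI replicate 2, 51 of the 120 cluster 8 cells (42.5%) had a Foxd1 UMI, 50 (41.7%) Foxc1, 47 (39.2%) Foxc2 and 17 (14.2%) Foxd2. Of these cells, 83 had at least 1 of the 4. Foxf1 was seen in 7 of the 120 (5.83%), against 39 of 89, 96 of 126 and 15 of 20 in the other libraries. At 3000 UMIs per cell, Foxd1 was seen in 33.6% (95% Wilson interval 25.6 to 42.7) and Foxf1 in 1.77% (0.487 to 6.22) of these cells. Foxd1 was seen in 0 of 70, 0 of 123 and 0 of 20 thinned cells of the other libraries, which allows up to 4.29%, 2.44% and 15.0%. Intervals and limits cover counting error only. Of 44 cells in SI replicate 2 with 2 or more Foxd1 UMIs, 42 lay in cluster 8, 26 had Foxc1, 21 had Foxc2 and 3 had Foxf1. LI replicate 1 had 2 cells with 2 or more Foxd1 UMIs, LI replicate 2 had 0 and SI replicate 1 had 2, and each of these 4 cells also had Foxf1.

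Several markers of other tissues moved with these genes. In SI replicate 2, all 7 urogenital markers (Pax2, Pax8, Emx2, Six2, Eya1, Lhx1, Gata3) had UMIs in cluster 8, summing to 183 CPM, against 1 to 3 of 7 and 7.11 to 12.0 CPM in the other libraries. Pax2 stood at 62.5 CPM and Six2 at 34.4 CPM there, and both were at 0 in cluster 8 of the other 3 libraries. Gata3 did not follow them, with 3.20 CPM against 7.11 CPM in SI replicate 1. Emx2 had only 2 UMIs, against 1 in LI replicate 2. Of 5 body wall and limb markers, 4 were present at 139 CPM in all, led by Prrx1 (70.5 CPM) and Meox1 (61.7 CPM), against 3.55 to 36.9 CPM in the others. Of 12 neural markers 10 were present, at 135 CPM in all, against 15.0 to 33.6 CPM in the others, with Ret and Tubb3 at 0. Pax1 was at 0, and so was the cartilage marker Acan, while Col2a1 had 35.2 CPM. The cartilage marker Sox9 stood at 80.9 CPM, but also at 39.1, 41.4 and 46.2 CPM in cluster 8 of the other libraries. All 8 fibroblast markers were present in every library, at 1422 to 2562 CPM. The part of tissue from outside the gut in the Foxd and Foxc levels was not tested.

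**Figure D4:**
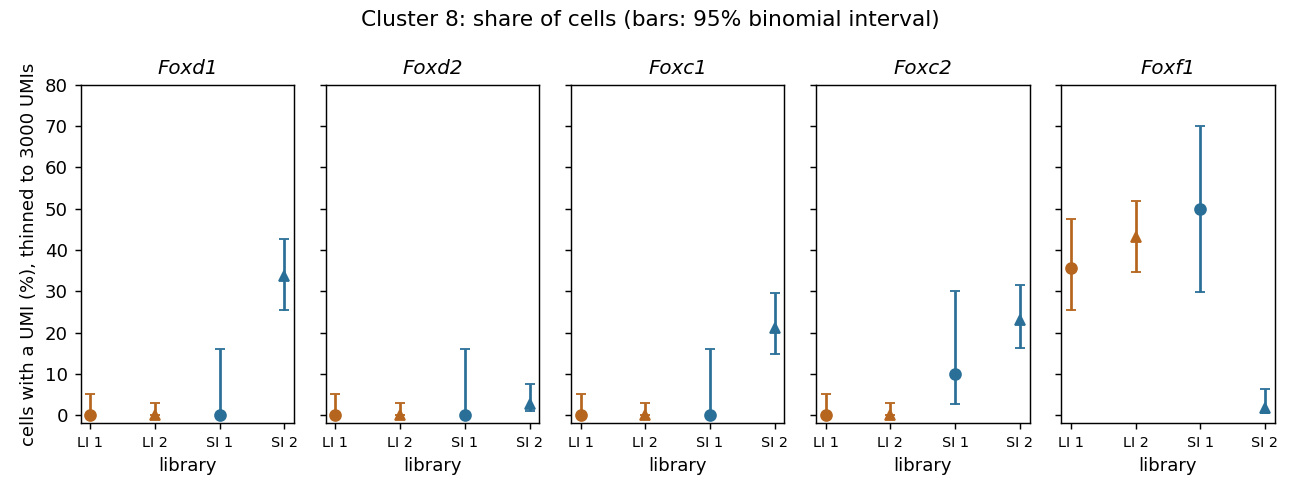
Percent of cluster 8 cells with a UMI of Foxd1, Foxd2, Foxc1, Foxc2 and Foxf1 (vertical axis) in each library, after thinning cells to 3000 UMIs, with 95% Wilson intervals. In SI replicate 2, Foxd1 was seen in 33.6% and Foxf1 in 1.77% of cells, while Foxd1 was at 0% in the other libraries.

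Foxc2 and Foxd2 were each found elsewhere too. Foxc2 was present in cluster 4 in every library, at 3.06, 2.14, 1.48 and 4.68 CPM from 7, 7, 5 and 28 UMIs. Foxd2 was found in neural-like cells, with 0, 5, 23 and 22 UMIs, and was at 0.205, 0.066, 0 and 0.858 CPM in other mesenchyme. Foxc1 had 3, 2, 8 and 7 UMIs in cluster 4, or 1.31, 0.610, 2.37 and 1.17 CPM.

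SI and LI were compared within each cell group, over 2 libraries each, which asks whether the forkhead genes differ along the gut. Nothing says whether libraries of a region are separate beyond the 2 experiments, so the p-values measure the spread between these samples, which may be technical. In edgeR's quasi-likelihood test 0 of the 9 genes were called in any of the 4 groups. In other mesenchyme 0 of 8 tested were called, where 3.24% of all genes tested were, and 4 had an unadjusted p under 0.05. DESeq2 called 1 of them, Foxc1. In mesothelial-like cells 0 of 4 were called (0.92% of all genes), 1 with an unadjusted p under 0.05, and in SMC-like cells 0 of 5 (1.39%), with 0 under 0.05. In neural-like cells 0 of 4 were called (0.31%), and 2 had an unadjusted p under 0.05. DESeq2 called 0 in each of these 3 groups.

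Foxf1 and Foxf2 were not separated between the regions. In other mesenchyme the SI over LI difference was 0.29 ± 0.27 for Foxf1 and 0.40 ± 0.25 for Foxf2 (log2, SE, adjusted p = 0.63 and 0.47). In SMC-like cells it was 0.42 ± 0.30 and 0.13 ± 0.28, and in mesothelial-like cells 0.11 ± 0.23 and -0.28 ± 0.27. In each of these 3 groups the libraries of the regions overlapped for both genes. Without LI replicate 2, which left the shallow LI replicate 1 as the only LI library, Foxf1 differed by 0.72 and Foxf2 by 0.76 in other mesenchyme, both called, where 2141 of 14403 genes were, and Foxf1 by 1.02 in SMC-like cells, also called, where 614 of 12682 genes were. Without LI replicate 1 the Foxf1 difference in other mesenchyme was -0.072.

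Foxl1 was higher in both SI libraries than in both LI libraries of other mesenchyme, with 3.28 and 4.77 CPM in LI and 6.68 and 6.90 CPM in SI. The difference was 0.90 ± 0.25 (adjusted p = 0.12), short of the threshold. It was 1.15 and was called without LI replicate 2, as were 2141 of 14403 genes. In other mesenchyme, 3 of the 8 tested genes (Foxl1, Foxc1 and Foxp1) had regions that did not overlap, as had 50.2% of all genes. In cluster 3 alone Foxl1 differed by 0.74 ± 0.24 (adjusted p = 0.14). In clusters 0, 2 and 4 together, with at most 15 UMIs of it in a cluster and library except for 20 in cluster 2 of SI replicate 1, it was -0.10.

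Foxd1, Foxc1 and Foxc2 had the largest SI over LI differences of the 8 genes tested in other mesenchyme, at 3.45 ± 1.16, 2.50 ± 0.72 and 2.16 ± 0.84 (adjusted p = 0.19, 0.14 and 0.25). Foxd1 stood at 0.922, 0.493, 0.662 and 13.0 CPM, Foxc1 at 0.410, 0.395, 0.728 and 3.40 CPM, and Foxc2 at 0.666, 0.559, 0.563 and 4.38 CPM. SI replicate 2 was far above the rest. SI replicate 1 lay within the range of the LI libraries for Foxd1 and Foxc2 and above it for Foxc1. Without SI replicate 2 the differences were 0.12, 1.04 and 0.07, and without clusters 8 and 10 they were 0.09, 0.95 and 0.75, with 0 of 8 genes called (3.81% of all genes). A fit without 1 library left 1 library in that region, so its spread was measured in the other region alone. Foxd2 was too low to be tested in other mesenchyme. Without SI replicate 1, all 4 of these genes were called, where 644 of 14591 genes were. Foxd1, Foxc1 and Foxc2 were also called when LI replicate 1 was left out (931 of 14576 genes) and when LI replicate 2 was (2141 of 14403).

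In neural-like cells Foxd2 stood at 0 and 0.897 CPM in LI and 4.99 and 4.04 CPM in SI. The regions did not overlap, and the difference of 2.76 ± 0.66 had an adjusted p of 0.16. Foxp2 there was 0.90 ± 0.26 higher in SI (adjusted p = 0.27). Of the 4 tested genes these 2 had regions that did not overlap, as had 38.7% of all genes. Without LI replicate 2, Foxd2 was called, with the lone LI library at 0, where 1473 of 11525 genes were.

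Foxp1 was not called between regions in any group. Its difference was -0.14 ± 0.16 in other mesenchyme, -0.03 ± 0.22 in SMC-like cells and -0.43 ± 0.19 in mesothelial-like cells (adjusted p = 0.44). In mesothelial-like cells both LI libraries, at 547 and 672 CPM, were above both SI libraries, at 440 and 423 CPM, and 40.7% of all genes had regions that did not overlap there.

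The Foxp2 difference between regions in other mesenchyme as a whole was 0.01 ± 0.26 (adjusted p = 0.99) and ran from -0.36 to 0.44 with each library left out, so its direction was not determined. Cluster 3 was looked at after its values were seen. There Foxp2 stood at 122 and 184 CPM in LI and 61.9 and 55.4 CPM in SI, with 350, 999, 363 and 433 UMIs. The difference of -1.25 ± 0.21 (adjusted p = 0.011) made it the 1 of 5 tested genes that was called, where 3.38% of all genes were. At 3000 UMIs per cell, 27.5% and 39.5% of LI and 16.5% and 13.4% of SI cells of cluster 3 had a Foxp2 UMI. In cluster 0 the order was mixed, with 146 and 285 CPM in LI and 220 and 322 CPM in SI. In clusters 0, 2, 4 or 6 alone, where not all 9 genes could be tested, 0 were called (5.25%, 3.29%, 0.649% and 1.59% of all genes). Cluster 8 was not tested alone, having 20 cells in SI replicate 1. Foxp2 stood there at 129 and 331 CPM in LI and 17.8 and 44.1 CPM in SI. In the same cells SI replicate 2 carried the urogenital and body wall markers given above. SI replicate 1 had 295 CPM of the stomach mesenchyme marker Barx1, and also mesothelial markers such as Krt19 (67.5 CPM). The part of cells with such markers in these Foxp2 levels was not tested. Whether the difference itself differs between clusters was not tested.

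**Figure D5:**
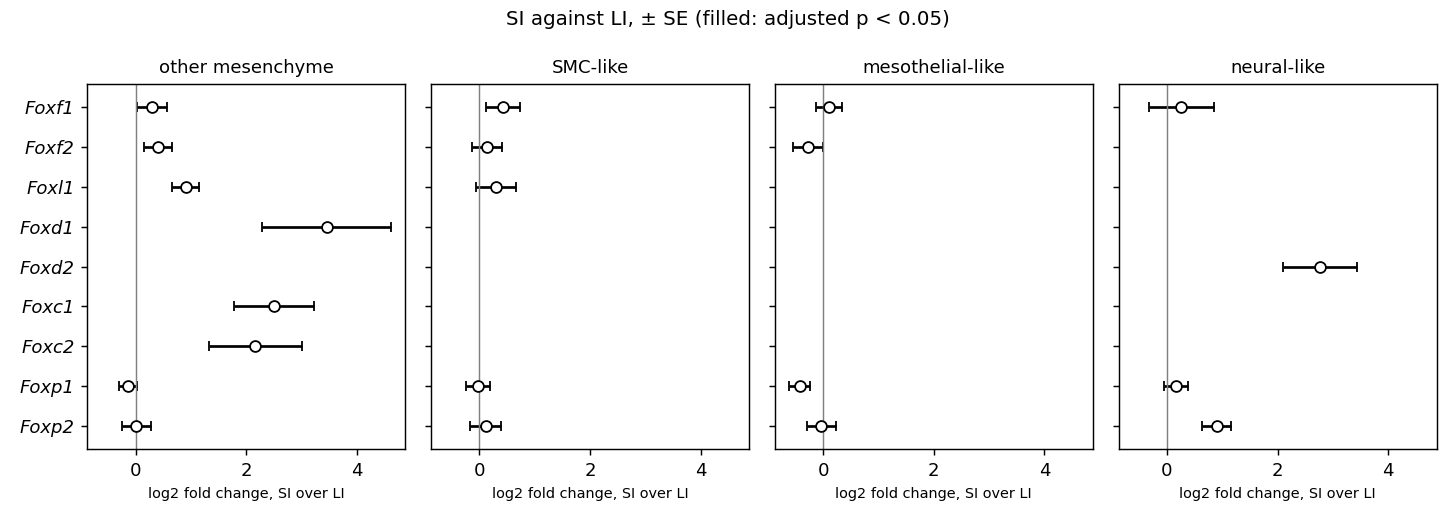
Log2 fold change ± SE of SI over LI (horizontal axis, the same in each panel) for each tested gene in 4 cell groups, from edgeR over 2 LI and 2 SI libraries. All points are open, since 0 genes were called, and the widest distances from 0 were Foxd1 at 3.45 in other mesenchyme and Foxd2 at 2.76 in neural-like cells.

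Whether a region difference depends on the cell group was tested by an interaction term against other mesenchyme. In mesothelial-like cells 0 of 7 tested genes were called (1.93% of all genes tested) and in SMC-like cells 0 of 7 (0.289%), with 2 and 0 at an unadjusted p under 0.05 by edgeR, and DESeq2 called 0 in each. In neural-like cells 1 of 7 was called (13.3% of all genes, 5.51% with a larger difference), Foxp2, whose SI over LI difference was 1.05 ± 0.25 larger there (adjusted p = 0.012). Foxp2 levels in neural-like cells were 8.87 and 8.97 CPM in LI and 16.7 and 18.0 CPM in SI. In other mesenchyme they were 125 and 226 CPM in LI and 142 and 175 CPM in SI. Without LI replicate 2 the term was 0.40 and was not called.

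The hedgehog pathway signals to the same mesenchyme. Of its 11 listed genes, 8 were called in SMC cells, 5 higher and 3 lower, where 9.01% of all genes were called (median 0.37 against -0.01 over all genes). The targets Hhip (1.46 ± 0.19), Gli1 (1.41 ± 0.19) and Ptch1 (0.88 ± 0.14) rose, and the co-receptors Boc (-1.36 ± 0.21) and Gas1 (-0.62 ± 0.13) fell. In neural cells 10 of 11 were called, all lower (median -2.03), where 56.5% of all genes were called. In mesothelial cells 4 of 11 were called, where 32.1% of all genes were, 3 higher (Cdon, Gas1, Smo) and 1 lower (Gli3). Between regions 0 of 11 were called in other mesenchyme, where 3.24% of all genes were.

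Of 9 genes tied to FoxF and Foxl1 in gut mesenchyme, 6 were called in SMC cells, 4 higher and 2 lower, where 9.01% of all genes were called. Fendrr, the noncoding RNA that starts beside Foxf1, rose by 1.10 ± 0.16, and Myocd, a smooth muscle coactivator that is also a marker used to choose these cells, by 4.99 ± 0.16. Bmp4, a BMP ligand, fell by 1.12 ± 0.13. In mesothelial cells 5 of 9 were called, 1 higher and 4 lower, where 32.1% of all genes were called. In neural cells 9 of 9 were called lower, where 29.2% of all genes were. Myocd and Pdgfra are among the markers used to choose cells, so their part of these counts was set by that choice. Between regions Sfrp1, a secreted Wnt inhibitor, was the 1 of 9 called in other mesenchyme, where 3.24% of all genes were (2.41 ± 0.22, adjusted p = 0.0025), with 120 and 101 CPM in LI and 597 and 458 CPM in SI. It was also the 1 of 9 called in SMC-like cells (2.65 ± 0.26), where 1.39% of all genes were. In mesothelial-like cells 3 of 7 were called (0.92% of all genes), Sfrp1 (1.43 ± 0.27) with Wnt4 (2.07 ± 0.33) and Wnt5a (-1.31 ± 0.21), both Wnt ligands. In neural-like cells 1 of 3 was called (0.31% of all genes), Wnt5a (-2.08 ± 0.32).

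Of 35 other forkhead genes, 16 could be tested in other mesenchyme and 0 were called between regions (3.24% of all genes), and 0 of 13 in each of the mesothelial-like, SMC-like and neural-like groups (0.92%, 1.39% and 0.31%). Between cell groups, 10 of 14 tested were called in neural cells, 4 higher and 6 lower, where 56.5% of all genes were called. Foxd3, a neural crest factor, had 126, 249, 293 and 279 CPM in neural-like cells and at most 0.395 CPM in other mesenchyme. In mesothelial cells 6 of 14 were called, 4 higher and 2 lower (32.1% of all genes). In SMC cells 1 of 14 was called (9.01% of all genes), Foxq1, 64.8 kb from Foxf2 (1.57 ± 0.26). Of 24 listed genes within 100 kb of a member, 13 were tested in other mesenchyme and 1, Gmds beside Foxc1, was called between regions (1.25 ± 0.20, adjusted p = 0.019), where 3.24% of all genes were, with 11.4 and 15.8 CPM in LI and 28.9 and 29.4 CPM in SI.

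Over 41 sums of a cluster and a library with at least 20 cells, the gene most like Foxf1 among 6558 genes was Foxf2 (Pearson's r of log2(CPM + 1) 0.956), followed by Fendrr (0.955) and Chst15 (0.949). Most like Foxf2 after Foxf1 were Ptch1 (0.951) and Fendrr (0.946). Foxl1 was most like Gm13889 (0.889), Angptl1 (0.804) and Mgll (0.791). Foxp1 was most like Cdh3 (0.909), Igsf3 (0.903) and Foxp2 (0.890), and Foxp2 was most like Sntg2 (0.920), Ldb2 (0.915) and Lrig3 (0.913). The sums share libraries and depth, so these values are descriptions. Foxd1 and Foxc1 had r = 0.746 over the 41 sums and -0.149 over 40, without cluster 8 of SI replicate 2, so their likeness rested on that sum. Foxc1 and Foxc2 had 0.885 and 0.691.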

How the data were processed

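Cell Ranger 3.1.0 and Seurat 3 are named in the submitters' processing notes, with the mm10 build. The authors deposited, per library, a matrix of raw UMI counts per gene and cell. Cells with at least 1000 genes and at most 10% mitochondrial UMIs were kept (scanpy 1.11.5). Scrublet's own threshold marked 1 to 6 cells per library, so its top scores were removed, at 0.8% per 1000 cells (183 to 348 cells). Libraries were integrated and clustered with Seurat 5.3.0 (2000 variable genes, 30 components, resolution 0.3), leaving out 98 forkhead, Hox and hedgehog-related genes. A cluster was named after a class with at least 3 fixed markers among its 10 leading genes. Otherwise it was named fibroblast where at least 3 fibroblast markers were detected in 10% or more of its cells. This also required that no marker of another class was among those leading genes. Counts were summed by library and group and tested with edgeR 4.0.16 (quasi-likelihood, Benjamini-Hochberg over all genes tested, called under 0.05). DESeq2 1.42.0 was an alternative. Cell groups were compared on marker-chosen cells with library as a block. Standard errors were derived from the F statistic. The code was tested on simulated data.

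The 9 genes were always named. Of each other list, called members were named by smallest adjusted p. The 3 most alike genes were taken among those with a mean of at least 20 CPM. Members, lists and tests were chosen with earlier results of these data known. The replicate numbers are not stated to mark a shared experiment, so they were not used to pair libraries. Alternatives were other normalization, no filter on low counts, each library left out, a replicate block, thinned sums, equal cells of each cluster, no doublet removal and marker-chosen cells. Cluster subsets were added after the data were seen.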

Additional observations from a re-analysis of the deposited data

Results flagged for a closer look

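The SI over LI difference of Foxp2 was 1.05 larger on the log2 scale in neural-like cells than in other mesenchyme, by a test of the interaction (SE 0.25, adjusted p = 0.012 by edgeR's quasi-likelihood test, where 1 of 7 of the forkhead genes and 13.3% of all genes were called). Without LI replicate 2 it was 0.40 and was not called. Foxp2 rested on 21, 50, 77 and 98 UMIs in neural-like cells of LI replicates 1 and 2 and SI replicates 1 and 2. In the smaller neural-like cluster, cluster 9, Foxp2 had 10, 3, 6 and 1 UMIs, and in cluster 7 it had 11, 47, 71 and 97. The part of the mix of both clusters in the difference was not tested.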

How the results depend on the processing

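With 2 libraries per region, and LI replicate 1 shallower than the others, single libraries moved the region results. Of the 9 genes, the number called between regions in other mesenchyme was 0 to 6 when each library was left out, 1 with DESeq2 (702 of 14093 of all genes), 4 with no filter on low counts (1603 of 19663), 2 with a replicate block (Foxl1 and Foxc1, 1139 of 14093) and 1 in cluster 3 alone. It was 0 to 1 in SMC-like cells and 0 to 1 in neural-like cells with each library left out, and 1 in neural-like cells with no filter or with the replicate block (Foxd2). In SMC cells against other mesenchyme it was 2 when the block by library was left out (323 of 12415 of all genes). For the interaction it was 2 with no filter and 0 to 1 with each library left out in mesothelial-like cells, and the same in neural-like cells. The replicate block changed the number of all genes called between regions from 457 to 1139 in other mesenchyme, 98 to 761 in mesothelial-like, 170 to 969 in SMC-like and 35 to 408 in neural-like cells. Over all genes tested, the difference between replicates 1 and 2 in LI was correlated with that in SI. The r was 0.373, 0.234, 0.422 and 0.329 in the same order of groups, from 2 libraries per region. Over all alternatives these counts of all genes ran from 72 to 2141, 33 to 761, 126 to 969 and 0 to 1473.

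Signs that turned were those of differences that were not called, apart from Foxp2 in cluster 3 alone (-1.25). In other mesenchyme, Foxf1 was -0.087 with marker-chosen cells and -0.072 to 0.72 with each library left out, and Foxp2 was -0.36 to 0.44, and -0.28 in cluster 6 alone. Foxl1 was -0.10 in clusters 0, 2 and 4 and -0.12 in cluster 2 alone, and Foxf2 was -0.10 in cluster 0 alone. With each library left out, mesothelial-like cells gave -0.15 to 0.40 for Foxf1 and -0.39 to 0.40 for Foxp2. Foxp2 there was 0.018 with the block, 0.13 with no doublet removal and 0.075 with marker-chosen cells. SMC-like cells gave -0.21 to 0.55 for Foxp2, -0.24 to 0.66 for Foxf2 and -0.26 to 0.26 for Foxp1. Neural-like cells gave -0.022 to 0.39 for Foxp1 and -0.65 to 0.93 for Foxf1, which was -0.33 with thinned sums and -0.042 with marker-chosen cells. Against other mesenchyme, Foxd1 in mesothelial cells was 0.14 with DESeq2, Foxf2 was -0.028 with thinned sums, and Foxl1 in SMC cells was -0.10 to 0.76 with each library left out. The cause was not tested.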

Other observations

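Foxp1 and Foxp2 were also present where Foxf1 was low. In cluster 4, where Foxf1 was at 36.3 to 122 CPM, Foxp1 stood at 235, 320, 270 and 228 CPM, and Foxp2 at 51.1, 90.0, 88.1 and 86.4 CPM. In cluster 8 of SI replicate 2, where 7 of 120 cells had a Foxf1 UMI, 73 had a Foxp1 UMI and 28 a Foxp2 UMI.

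In SI replicate 1, the 20 cells of cluster 8 held the stomach marker Barx1 at 295 CPM, against 0.801 to 3.01 CPM in cluster 8 of the other libraries. Mesothelial markers were also higher there. Wt1 stood at 195 CPM, against 19.0 to 120 CPM in the other libraries, and Krt19 at 67.5 CPM, against 0 to 2.40 CPM. Upk3b had 24.9 CPM, against 2.24 to 3.20 CPM, while Msln and Muc16 were at 0. Foxf1 was at 142 CPM in those 20 cells.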
